A study of Mus musculus with 24 samples.

Results

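The flavin-containing monooxygenase (Fmo) genes were followed over genotype and circadian time in inguinal fat of mice. Members were the family genes whose probe sets carry exactly 1 gene symbol, with the brightest probe set to be used where there were several. The 4 genes described, of 19938 genes tested, are Fmo1 (probe set 10359571), Fmo2 (10359582), Fmo4 (10359561) and Fmo5 (10494565), each with 1 probe set. The family was taken up because a lower Fmo1 level in knockout fat had already been seen in these arrays, so the genotype differences of Fmo1 are given as a description, and nothing is read from a test of them.

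Flavin-containing monooxygenases sit in the membrane of the endoplasmic reticulum and carry a tightly bound FAD. They use NADPH and molecular oxygen to oxidise nitrogen and sulfur atoms of drugs, dietary amines and a few endogenous molecules. FMO1 also turns hypotaurine into taurine, and FMO5 differs from the others in that it catalyses Baeyer-Villiger oxidation of ketones. Mice that lack Fmo1, Fmo2 and Fmo4 together, and mice that lack Fmo5, are lean, which ties the family to fat storage.

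Expression was measured on 24 Affymetrix arrays, 1 per mouse sample, in 8 groups of 3 biological replicates. Knockout mice (Ad-Bmal1-/-) carried aP2-Cre+/- and Bmal1fx/fx, and control mice carried Bmal1fx/fx without Cre, so Cre and the deletion cannot be told apart. Both lines had been bred onto C57BL/6J for 6 generations or more and were fed chow, and the labels give neither age nor sex. All mice were kept in constant darkness from 36 h before collection began and were fasted for 24 h, and fat was taken at circadian times (CT) 0, 6, 12 and 18 h, where CT0 starts the subjective day. The aP2 promoter drives Cre in adipocytes and also in some other cells, such as macrophages. The inguinal pad was taken whole, and fewer cells of a type and less RNA per cell cannot be told apart in it. All values below are log2 expression from RMA (robust multi-array average), differences are knockout minus control, and the threshold was an adjusted p under 0.05 over all genes.

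Bmal1 (symbol Arntl), the partner of CLOCK, was 7.97 on all 3 control arrays at CT0 and between 7.30 and 7.51 on the knockout arrays. At CT6 the knockout arrays were the higher ones, 6.88 to 7.08 against 6.54 to 6.82. The ranges overlapped at CT12, at 6.46 to 6.89 in knockout and 6.04 to 6.75 in control, and at CT18, at 7.07 to 7.43 and 7.04 to 7.55. The overlap at CT12 came from replicate 1 of each genotype, at 6.46 in knockout and 6.75 in control: the other 2 knockout arrays were at 6.89 and 6.87 and the other 2 control arrays at 6.04 and 6.22. At CT18 the lowest knockout and the highest control array were both replicate 3. Nothing at hand says whether this probe set lies in the deleted stretch, so it does not check the labels.

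Some arrays stood apart. Knockout replicate 1 at CT12 and knockout replicate 3 at CT18 deviated from their group means in the direction of control fat: over the 19934 other genes, the deviation correlated with the genotype difference of the other times at r = 0.24 and r = 0.27, the highest of the 24 arrays (lowest -0.20). Control replicate 1 at CT12 and control replicate 3 at CT18, which had been picked out together with them for genes including Fmo1, gave 0.05 and 0.11. By this measure these control arrays did not stand apart, since control replicate 1 at CT0 gave 0.15 and control replicate 2 at CT12 gave 0.10. The knockout and control arrays so picked are the 4 arrays meant below, and include those with the Arntl values just given. Whether labels were exchanged between them was not tested, so genotype differences at CT12 and CT18 are those of the arrays as labelled. Because they were picked by values that follow the genotype difference, differences without them are larger, and p-values of genotype tests smaller, in part by that choice. Knockout replicate 2 at CT0 had the lowest mean of 9 adipocyte markers (10.59, control range 10.95 to 11.35) and raised markers of reproductive tract epithelium (7.32, control range 5.53 to 5.88) and of mammary and skin epithelium (7.57, control range 6.33 to 6.84). At CT6, knockout replicate 2 had raised liver markers (7.94, control range 5.57 to 6.59) and control replicate 2 the highest brown adipocyte markers (6.20, control median 5.25). The tissue label fits the adipocyte markers, which averaged 9.59 or more each and had a median over arrays of 11.17 in both genotypes, and 8 of 8 endothelial markers were lower in knockout fat, by a median of -0.16, 5 of them at an unadjusted p under 0.05. The part of these differences between arrays in the results below was not tested, except where a value without the array is given.

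Fmo1, the taurine-forming member, had a lower mean in knockout than in control fat at each time. In control fat its values were 10.59, 10.72 and 10.46 at CT0, then 10.67, 10.62 and 10.57 at CT6, 10.50, 10.86 and 10.85 at CT12, and 10.88, 10.77 and 10.65 at CT18, each in the order of replicates 1, 2 and 3. In knockout fat they were 9.60, 9.21 and 9.70 at CT0, then 9.79, 9.92 and 10.07 at CT6, 10.90, 10.23 and 10.17 at CT12, and 10.49, 10.06 and 11.05 at CT18. At CT0 and CT6 every knockout array was below every control array. At CT12 and CT18 the genotypes overlapped through knockout replicate 1 and knockout replicate 3, which were above all control arrays of their time.

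The control group means of Fmo1 stayed between 10.59 ± 0.13 (SD, n = 3) at CT0 and 10.77 ± 0.11 at CT18. The knockout means were 9.50 ± 0.26 at CT0, 9.93 ± 0.14 at CT6, 10.44 ± 0.41 at CT12 and 10.53 ± 0.49 at CT18. Ordered from lowest to highest, the knockout groups at CT0, CT6 and CT12 were separate from one another, and from knockout CT12 upward each group overlapped the next. The genotype difference was thus -1.09 at CT0, 0.47 of the control level on the linear scale, then -0.69 at CT6, -0.30 at CT12 and -0.24 at CT18 (SE 0.20 each). Averaged over the times it was -0.58 ± 0.10 (SE), or 0.669 of control, and 10 of 12 knockout arrays were below the control mean of their time. Leaving out the 4 arrays, the differences at CT12 and CT18 were -0.65 and -0.55 and the mean was -0.75. With 1 array left out the difference at CT12 lay between -0.53 and -0.17 and that at CT18 between -0.49 (without knockout replicate 3) and 0.00 (without knockout replicate 2), and without the replicate 2 arrays at CT0 the difference there was -0.88.

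**Figure D1:**
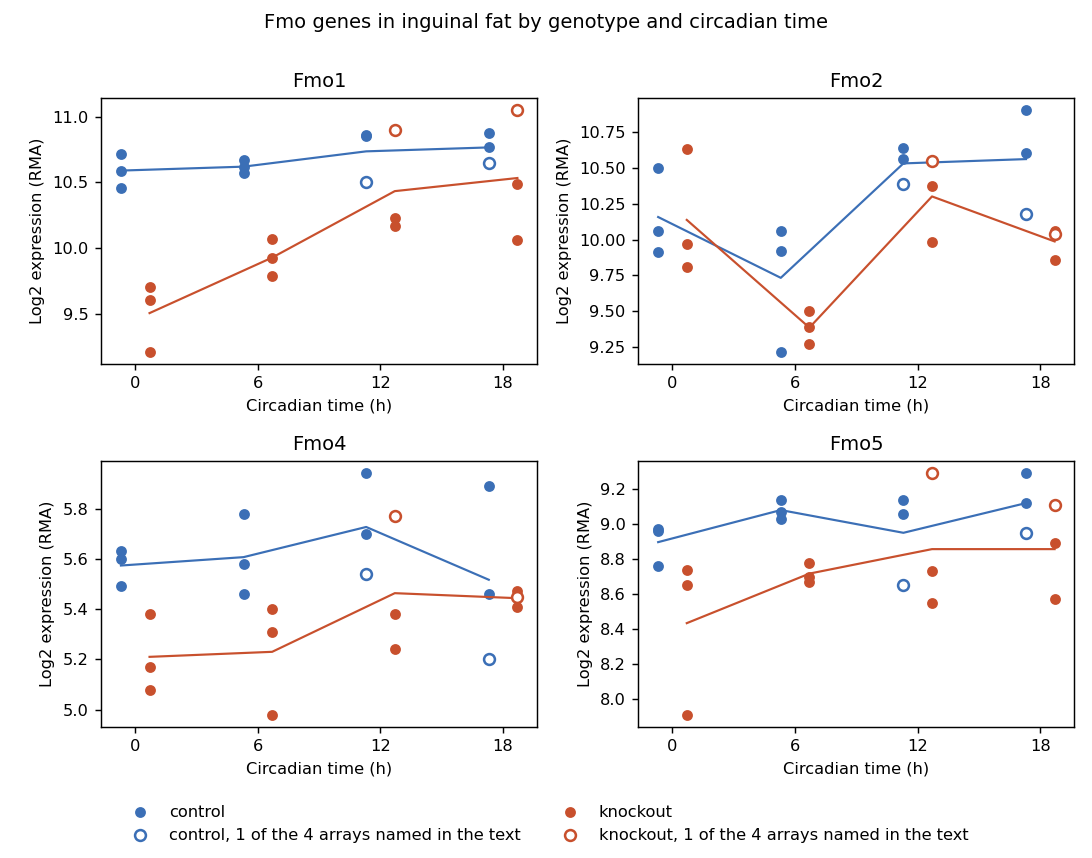
Log2 expression of Fmo1, Fmo2, Fmo4 and Fmo5 (vertical axes, RMA) against circadian time in hours, 1 point per array, with lines through the means of the 3 arrays of a group; open circles are the 4 arrays named in the text. Knockout Fmo1 lies below all control arrays at CT0 and CT6, and Fmo2 is lowest at CT6 in both genotypes, with means of 9.73 in control and 9.39 in knockout.

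Fmo2, the member best known from lung, had its lowest mean at CT6 in both genotypes. Control fat held 10.50, 9.91 and 10.06 at CT0, then 9.92, 9.22 and 10.06 at CT6, 10.39, 10.56 and 10.64 at CT12, and 10.90, 10.60 and 10.18 at CT18. Knockout fat held 9.97, 10.63 and 9.81 at CT0, then 9.50, 9.27 and 9.39 at CT6, 10.55, 10.37 and 9.98 at CT12, and 9.86, 10.06 and 10.04 at CT18. All knockout arrays at CT6 were below all knockout arrays of the other times, and control replicate 2 at CT6 was the lowest control array. Of all neighbouring groups in the order of means, from knockout CT6 (9.39 ± 0.11, SD, n = 3) to control CT18 (10.56 ± 0.36), each overlapped the next.

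Fmo4 was the dimmest member, with a mean of 5.47 over the arrays against a median gene of 6.50. Its control values were 5.49, 5.63 and 5.60 at CT0, then 5.78, 5.58 and 5.46 at CT6, 5.54, 5.94 and 5.70 at CT12, and 5.89, 5.46 and 5.20 at CT18. Its knockout values were 5.17, 5.38 and 5.08 at CT0, then 5.31, 4.98 and 5.40 at CT6, 5.77, 5.38 and 5.24 at CT12, and 5.47, 5.41 and 5.45 at CT18. The genotypes were separate at CT0 and CT6 and overlapped at the other times. The highest knockout array at CT12 was replicate 1 and the lowest control array at CT18 was replicate 3, both among the 4 arrays. The order of means ran from knockout CT0 (5.21 ± 0.16) to control CT12 (5.72 ± 0.20), and the step from knockout CT6 (5.23 ± 0.22) to knockout CT18 (5.44 ± 0.03) was the only one between neighbours without overlap.

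Fmo5, the Baeyer-Villiger enzyme, had its lowest mean in knockout fat at CT0. Control fat gave 8.97, 8.76 and 8.96 at CT0, then 9.14, 9.03 and 9.07 at CT6, 8.65, 9.14 and 9.06 at CT12, and 9.29, 9.12 and 8.95 at CT18. Knockout fat gave 8.74, 7.91 and 8.65 at CT0, then 8.78, 8.67 and 8.70 at CT6, 9.29, 8.55 and 8.73 at CT12, and 8.89, 8.57 and 9.11 at CT18. Again the genotypes were separate at CT0, by the narrow gap from 8.74 to 8.76, and at CT6, and overlapped later. The lowest value, 7.91, came from knockout replicate 2 at CT0. In the order of means, from knockout CT0 (8.43 ± 0.45) to control CT18 (9.12 ± 0.17), each group overlapped the next.

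Promoter sequence is shown for the members whose windows held one of the circadian or nuclear receptor motifs searched for. Windows of 250 bases before each RefSeq start (GRCm38.p6) were at hand for 3 of the 4 members (Fmo2, Fmo4 and Fmo5), with 2 starts for Fmo2; Fmo1 was not searched. They were searched on both strands for the E-box CACGTG bound by CLOCK and BMAL1 (in 6.02% of 32851 windows of this length), its variant CACGTT (3.85%), the nuclear receptor half-site AGGTCA (14.0%) and the D-box TTANGTAA (2.06%). None held CACGTG. The Fmo4 window held a half-site on the reverse strand, and the window of the more downstream Fmo2 start held CACGTT and a half-site. The other Fmo2 window and that of Fmo5 held none of these letters. The 120 bases next to each of these starts follow, 5′ to 3′ in the direction of transcription, from the minus strand, with the matches in capitals; a match is a description of the letters and not a bound site.
Fmo4 (chr1:162812550-162812669): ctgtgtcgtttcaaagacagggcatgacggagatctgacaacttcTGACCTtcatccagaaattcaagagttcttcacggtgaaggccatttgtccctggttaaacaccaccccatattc
Fmo2 (chr1:162898494-162898613): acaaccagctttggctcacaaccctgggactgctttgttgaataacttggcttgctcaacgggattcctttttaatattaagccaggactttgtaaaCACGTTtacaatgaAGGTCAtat
In Fmo4 the first base of the match lay 75 bases before the start, and in Fmo2 the matches began 23 and 9 bases before it.

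Counted over the family, all knockout arrays were below all control arrays for Fmo1, Fmo4 and Fmo5 at CT0, a separation that 4.47% of all genes showed, and for the same 3 genes at CT6, where the share of all genes was 6.27%. Fmo2 was separated in this way at CT18 alone (4.25% of genes), and none of the members was at CT12 (5.12% of genes). Without the 4 arrays, all 4 members were separated at CT12, as were 23.7% of all genes, and Fmo1, Fmo2 and Fmo5 at CT18, as were 18.0% of all genes. With 2 arrays left on each side, such a separation is common. Fmo1 was taken up for its lower level in knockout fat, so nothing is read from its part in these counts.

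For the mean genotype difference, 1 of the 4 members passed the threshold, which was Fmo1, the gene the family was taken up for, and nothing is read from that count; 0.0201% of the genes tested passed. The other members were lower in knockout fat without passing. Fmo2 differed by -0.29 ± 0.11 (SE, adjusted p = 0.682), Fmo4 by -0.27 ± 0.08 (adjusted p = 0.441) and Fmo5 by -0.30 ± 0.10 (adjusted p = 0.543). Their 95% intervals ran from -0.52 to -0.06, from -0.43 to -0.11 and from -0.50 to -0.10. Knockout arrays were below the control mean of their time on 10 of 12 arrays for Fmo2, 11 of 12 for Fmo4 and 11 of 12 for Fmo5. Each of the 3 had an unadjusted limma p under 0.05, at which 3.58% of all genes were lower in knockout fat. Over all genes the median difference was 0.00, and 49.4% of them were lower. The median over the 4 members, -0.30, takes in Fmo1, which chose the family, so nothing is read from it.

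Without the 4 arrays, Fmo4 and Fmo5 passed, at -0.37 (adjusted p = 0.0194) and -0.44 (adjusted p = 0.0211), while 0.697% of all genes passed (0.416% lower in knockout fat). Fmo2 was then at -0.40 (adjusted p = 0.215). Whether Fmo4 and Fmo5 pass the threshold thus depends on these arrays. They were picked by values that follow the genotype difference, so nothing is read from the passes without them. Each member kept its direction with and without these arrays.

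**Figure D2:**
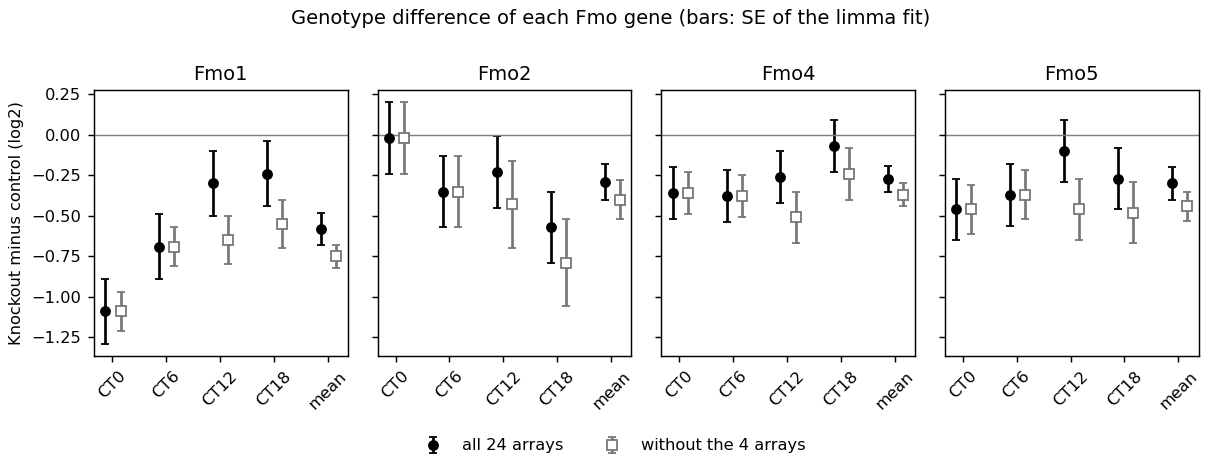
Knockout minus control on the log2 scale (vertical axis) for each Fmo gene at CT0, CT6, CT12 and CT18 and averaged over the times, with the SE of the limma fit; filled circles use all 24 arrays and open squares leave out the 4 arrays. The Fmo1 difference is -1.09 at CT0 and -0.24 at CT18, while the Fmo2 difference is -0.02 at CT0 and -0.57 at CT18.

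By time, the genotype difference of Fmo2 was -0.02 at CT0, -0.35 at CT6, -0.23 at CT12 and -0.57 at CT18 (SE 0.22 each, adjusted p = 0.813 at CT18). Its value at CT0 depended on the replicate 2 arrays, at 10.63 in knockout and 9.91 in control. Without both it was -0.39, and without the knockout array alone it was -0.26. Fmo4 differed by -0.36 at CT0, -0.38 at CT6, -0.26 at CT12 and -0.07 at CT18 (SE 0.16 each), and by -0.51 at CT12 and -0.24 at CT18 without the 4 arrays. Fmo5 differed by -0.46, -0.37, -0.10 and -0.27 at the same times (SE 0.19 each), and by -0.27 at CT0 without the replicate 2 arrays. With the 4 arrays left out, Fmo5 differed by -0.46 at CT12 and -0.48 at CT18, and Fmo2 by -0.43 and -0.79. In limma's test 0 of the 4 members passed at CT0, where 0.0% of all genes did, at CT6 (0.0%), at CT12 (0.0%) or at CT18 (0.00502%). Fmo4 and Fmo5 had an unadjusted p under 0.05 at CT0 (0.0313 and 0.0248), where 5.55% of all genes did, Fmo4 also at CT6 (0.0247), where 3.77% did, and Fmo2 at CT18 (0.0177), where 6.05% did. Without the replicate 2 arrays at CT0 the unadjusted p of Fmo5 there was 0.173.

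Whether the genotype difference itself changed with time was asked by the interaction test, which was not used to take up the family. No member passed it. The unadjusted p was 0.0201 for Fmo1, 0.377 for Fmo2, 0.509 for Fmo4 and 0.583 for Fmo5, with an adjusted p of 1.0 for each. No gene of the 19938 passed (0.0%), and 2.98% had an unadjusted p under 0.05. The smaller Fmo1 difference at CT18 than at CT0 is therefore not shown to differ from a constant difference.

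Time of day within a genotype was tested by a limma F test over the 4 times, which 0 of the 4 members passed in control fat, where 0.0602% of all genes passed, and 0 in knockout fat, where 0.0702% did. Fmo2 had an unadjusted p of 0.00385 in control fat (adjusted p = 0.522) and 0.00294 in knockout fat (adjusted p = 0.185), and unadjusted values under 0.05 were found for 5.8% and 13.4% of all genes. The span from its trough at CT6 to its highest mean was 0.82 in control fat, where the highest mean was at CT18, and 0.91 in knockout fat, where it was at CT12. These spans were 1.01 and 0.79 without the 4 arrays, with the same times of trough and peak. Directly, CT18 exceeded CT6 for Fmo2 by 0.82 ± 0.22 (SE) in control fat (adjusted p = 0.297) and by 0.60 ± 0.22 in knockout fat (adjusted p = 0.311). Without control replicate 2 at CT6 the former was 0.57. The shares of genes that passed were 0.0602% and 0.0201%.

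The means of Fmo1 over the day spanned 0.18 in control fat (F test, adjusted p = 0.987) and 1.03 in knockout fat (adjusted p = 0.0662). In knockout fat CT12 exceeded CT0 by 0.93 ± 0.20 (adjusted p = 0.0749, with 0.0953% of genes passing) and CT18 exceeded CT6 by 0.61 ± 0.20 (adjusted p = 0.256), or by 0.35 without the 4 arrays and 0.35 to 0.84 with 1 array left out. In control fat the same differences were 0.15 ± 0.20 and 0.15 ± 0.20 (0.0401% of genes passed for CT12 minus CT0). With the 4 arrays left out, the rise from CT0 to CT12 in knockout fat was 0.70 (adjusted p = 0.0934) and the span 0.77. The low knockout values at CT0 enter both these values and the genotype difference. Between the same groups, 6 of 8 macrophage markers and 6 of 7 smooth muscle and pericyte markers differed at an unadjusted p under 0.05, as 9.77% of all genes did. The mean of the macrophage markers was 7.84 to 8.86 on the knockout arrays at CT0 and 8.78 to 9.23 at CT12, and that of the smooth muscle markers 8.76 to 9.48 and 7.99 to 8.29. The 7.84 and the 9.48 both came from knockout replicate 2 at CT0. Replicates 1 and 3 there were at 8.65 and 8.86 for macrophage markers and at 8.91 and 8.76 for smooth muscle markers. The part of these markers in the Fmo1 values was not tested. Fmo4 spanned 0.21 in control and 0.25 in knockout fat, and Fmo5 spanned 0.22 and 0.42, with adjusted p-values of the F tests between 0.478 and 0.981.

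The spread between mice of a group was compared for pairs of members. It was taken as each array's deviation from its group mean, which takes out genotype and time as labelled. Permutations within groups were two-sided (100000 draws), with adjustment over the 6 pairs. If labels had been exchanged between the 4 arrays, which was not tested, genotype would still enter their deviations. Fmo1 and Fmo5 deviated together, with Pearson's r = 0.81 (permutation p = 0.0032, adjusted p = 0.019) and Spearman's rho = 0.73 (permutation p = 0.0057, adjusted p = 0.0344) over 24 arrays. The correlation was 0.67 in control and 0.84 in knockout arrays, and 0.81 without the 2 arrays farthest out in Fmo1. It was 0.65 without the 4 arrays, where it did not pass (permutation p = 0.16, adjusted p = 0.488). It also did not pass with 1 array left out where that array was control replicate 1 or knockout replicate 1 at CT12 or any of the 3 knockout arrays at CT18 (r from 0.73 to 0.82, highest adjusted p = 0.0651).

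Fmo4, Fmo1 and Fmo2 follow one another among the protein-coding genes of chromosome 1 in the RefSeq table, between Prrc2c and Fmo6, while Fmo5 is on chromosome 3 between Chd1l and Prkab2. Fmo1 and its neighbour Fmo2 did not deviate together measurably, with r = 0.04 (rho = -0.04, permutation p = 0.87, adjusted p = 0.974). For Fmo1 and Fmo4 r was 0.38 (rho = 0.40, adjusted p = 0.145), and for Fmo2 and Fmo4 it was 0.53 (rho = 0.45, adjusted p = 0.0986). Fmo2 and Fmo5 gave 0.01 (adjusted p = 0.974) and Fmo4 and Fmo5 0.34 (adjusted p = 0.267). Without knockout replicate 2 at CT0, r was 0.25 for Fmo1 and Fmo2 and 0.51 for Fmo1 and Fmo4. It was then 0.48 for Fmo2 and Fmo4, 0.46 for Fmo2 and Fmo5 and 0.65 for Fmo4 and Fmo5. Fmo1 and Fmo5 passed in 19 of 24 permutation tests with 1 array left out, and Fmo1 and Fmo2 in 0. Each other pair passed in 1 (lowest adjusted p from 0.0144 to 0.0487).

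**Figure D3:**
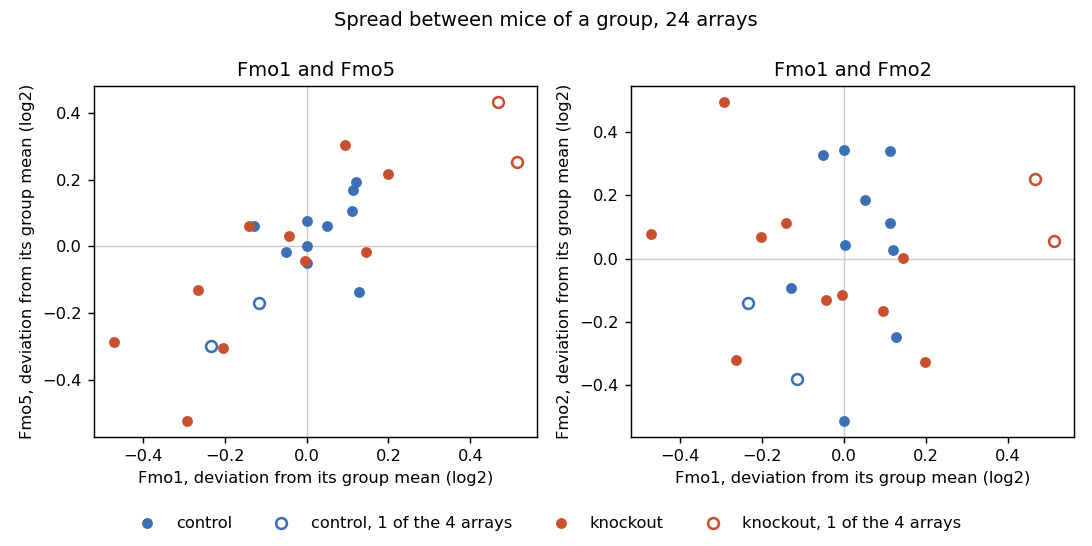
Each array's deviation from its group mean on the log2 scale, Fmo5 (left, vertical axis) and Fmo2 (right, vertical axis) against Fmo1 (horizontal axes), 1 point per array for 24 arrays; open circles are the 4 arrays. Fmo5 follows Fmo1 with r = 0.81, the open circles lying at both ends, and Fmo2 does not, with r = 0.04 (0.25 without knockout replicate 2 at CT0).

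Among all genes, those whose levels followed Fmo1 most closely over the 24 arrays were Gsta3 (r = 0.94), a glutathione transferase, Kcnj15 (0.93), a potassium channel, Ces1d (0.91), a carboxylesterase that hydrolyses triacylglycerol, Acsm5 (0.91), a medium-chain acyl-CoA synthetase, and Nampt (0.91), the rate-limiting enzyme of NAD salvage. They stayed close after group means as labelled were removed, with r of the deviations of 0.90, 0.85, 0.81, 0.85 and 0.91. If labels had been exchanged between the 4 arrays, which was not tested, genotype would still enter these deviations. Whether these r values hold without the 4 arrays was not tested either. These 5 genes were lower in knockout fat by mean differences between -0.79 (Kcnj15) and -0.40 (Nampt), which enter the likeness over all arrays. Fmo5 was nearest to Fbxo21 (r = 0.93), Dusp1 (0.89), a MAP kinase phosphatase, Asns (0.89), the asparagine synthetase, Garre1 (0.89) and Phyhd1 (0.87).

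Fmo4 was nearest to Eml5 (0.79), Ces1d (0.76), Inmt (0.74), an enzyme that methylates indoleamines, Acsm5 (0.72) and Kcnj15 (0.72), with 1 predicted gene left out. Ces1d, Acsm5 and Kcnj15 were thus near both Fmo1 and Fmo4. Fmo2 was nearest to Cep290 (0.81), a ciliary protein, Rag2 (0.75), Riok2 (0.74), Ranbp9 (0.72) and Atp8a1 (0.69). For Riok2, Ranbp9 and Atp8a1, r fell to between 0.23 and 0.37 after group means were removed. All of these r values describe the same 24 arrays, share the groups and were picked as the highest.

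Genes that supply or surround the monooxygenase reaction were taken from 7 lists. In limma's test 0 genes of these lists passed for the mean genotype difference. Of the other Fmo genes, 2 of 4 were measured; Fmo9, at a mean of 4.99, differed by 0.05 ± 0.05 (SE). For the microsomal electron carriers, of which 6 of 7 were measured, all cytochromes b5 or their reductases, 4 of 6 were lower, with a median of -0.02; Cyb5a had the smallest p, at -0.24 ± 0.07 (adjusted p = 0.508). Riboflavin and FAD supply, which makes the flavin cofactor, had 1 of 3 measured genes lower and a median of 0.06; Rfk, the riboflavin kinase, differed by 0.07 ± 0.04. In NADPH supply 6 of 7 were lower, with a median of -0.08. Aldh1l1, which makes NADPH from 10-formyltetrahydrofolate, differed by -0.51 ± 0.12 (adjusted p = 0.182) and Nadk, the NAD kinase, by -0.14 ± 0.05 (adjusted p = 0.637).

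Cysteamine and taurine synthesis holds the genes that make hypotaurine, the substrate of FMO1, and the taurine transporter. Of its 7 genes 3 were lower and 4 higher, with a median of 0.00. Vnn1, the pantetheinase that releases cysteamine, was on the opposite side to Fmo1, at 0.62 ± 0.15 (adjusted p = 0.182), and Csad, a decarboxylase on the route to hypotaurine, at 0.15 ± 0.06 (adjusted p = 0.725). Slc6a6, the taurine transporter, was the listed gene that passed tests of time. It fell from CT6 to CT18 by 0.90 ± 0.11 in control fat (adjusted p = 0.00101) and by 0.79 ± 0.11 in knockout fat (adjusted p = 0.00465), and its F tests gave adjusted p = 0.00317 and 0.0195. The F test in knockout fat did not pass without the 4 arrays (adjusted p = 0.0801), nor without knockout replicate 1 at CT0, replicate 2 or 3 at CT6, or replicate 1 or 3 at CT18 (up to 0.096). The fall in knockout fat did not pass without replicate 3 at CT6 or at CT18 (adjusted p = 0.0599 and 0.0526). From CT6 to CT18 Fmo2 had gone up in both genotypes, by 0.82 and 0.60, without passing.

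Xenobiotic sensors, transcription factors and partners that respond to foreign compounds, had 4 of 9 genes lower and a median of 0.01; Arnt, the partner of the aryl hydrocarbon receptor, differed by -0.08 ± 0.04 and Nr1h4, the bile acid receptor, by -0.16 ± 0.10. Amine and aldehyde oxidoreductases, the other enzymes that oxidise such substrates, had 8 of 10 genes lower and a median of -0.16. Of these, 4 were lower at an unadjusted p under 0.05, as were 5 of 8 endothelial markers and 3.58% of all genes. Adh1, an alcohol dehydrogenase, differed by -0.33 ± 0.06 (adjusted p = 0.0551) and Aox1, an aldehyde oxidase, by -0.34 ± 0.08 (adjusted p = 0.214). Endothelial markers had the same median difference, -0.16, as this list.

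**Figure D4:**
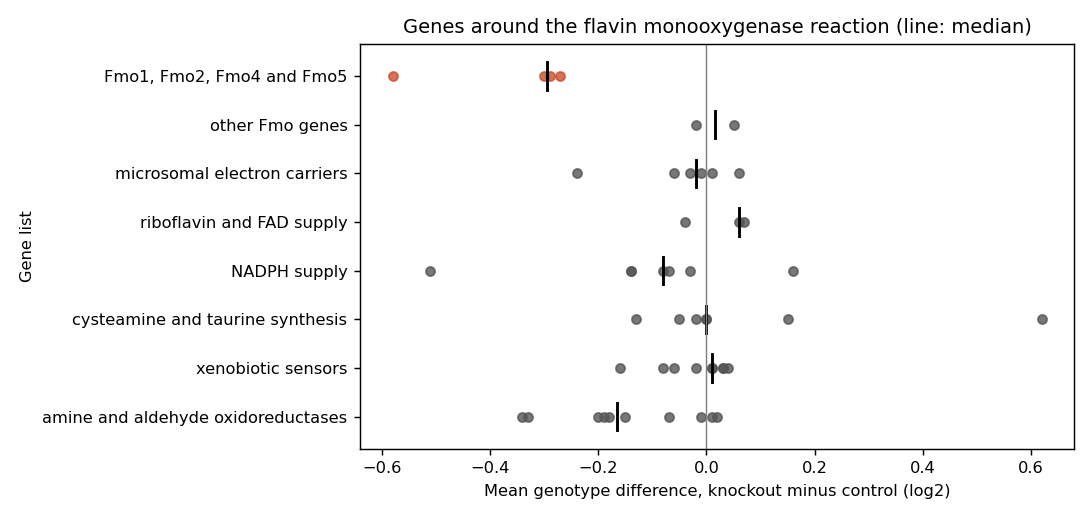
Mean genotype difference (knockout minus control, log2, horizontal axis) of the 4 Fmo genes and of each measured gene of the 7 lists (vertical axis), 1 point per gene, with a black line at each list's median. The 4 Fmo genes lie between -0.58 (Fmo1, which chose the family) and -0.27. Single genes of the lists lie between -0.51 (Aldh1l1) and 0.62 (Vnn1), and the medians of the lists between -0.16 and 0.06.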

How the data were processed

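The authors' deposited log2 values come from RMA, per the submitters' processing notes, of a version and genome build not stated in the labels or table. They entered the tests unchanged and without a filter on dim genes. Of 35556 probe sets, 21789 had 1 symbol in the platform annotation, 1621 had several and 12146 were unnamed here; 21698 of the first matched a RefSeq table (GRCm38.p6) by Entrez number. The probe set with the highest mean stood for a gene (999 genes had several), which left 19938 genes. Array medians lay between 6.46 and 6.56, and precision is set by how many arrays there are.

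A means model of the 8 groups was fitted over all 24 arrays with limma 3.58.1 in R 4.3.3 (lmFit, eBayes, 16 residual and 5.03 prior degrees of freedom, Benjamini-Hochberg over all genes). Contrasts were the mean genotype difference, that at each time, opposite times in each genotype, and F tests of time and of the interaction. Permutations ran in Python 3.11.15. In simulated data of 19938 genes, differences of 0.5 and 1 (log2) were recovered in 95.5% and 100% of changed genes for the mean genotype difference. For the interaction, rhythms of that height were recovered in 8.96% and 83.6%. The changed genes were drawn at random from all genes and given independent normal noise. The SD of each member over the arrays was above that of 91.4% to 99.0% of genes, so these shares need not hold for the members. Named genes are the members, the 5 genes nearest to each, and of each pathway list those past the threshold or up to 2 with the smallest p. The members, the lists and the tests were chosen with earlier results of these data known. Alternatives were another normalization, centring, a filter, other variance models, mean probe sets, replicate blocks, fits of single genotypes or times, cosine terms, and leaving out arrays. Same-numbered arrays of a time deviated together (r above 0.1) in 5 of 12 pairs, among them all 3 at CT0 (0.19, 0.37 and 0.33), so replicate numbers were not taken to pair mice over the study.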

Additional observations from a re-analysis of the deposited data

How the results depend on the processing

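The mean Fmo1 difference lay between -0.75 and -0.53 over 10 alternatives and between -0.64 and -0.52 with 1 array left out. The number of members past the threshold for the mean genotype difference was 1 in the full set. It was 0 after quantile normalization, 0 without the replicate 2 arrays at CT0 and 3 without the 4 arrays. With 1 array left out it was 1 in 5 of 24 limma fits and 0 in the rest, with an adjusted p of Fmo1 up to 0.14. Where the count is 1 the gene is Fmo1, whose genotype difference chose the family, so nothing is read from it. With the replicate number as a block over all groups or within each time the count was 0, and the Fmo1 difference was -0.58 in both. At CT0, where all 3 same-numbered pairs deviated together, the count of members was 0 with and without the block. It therefore cannot show whether the pairing there matters.

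For time in knockout fat 0 members passed, against 1 (Fmo1) with cosine and sine terms and 0 to 1 with 1 array left out (without knockout replicate 2 at CT18). For CT12 minus CT0 in knockout fat it was 1 with array weights and 0 to 1 with 1 array left out, for CT18 minus CT6 0 to 1. For the genotype difference at CT0 it was 1 without the 4 arrays and 0 to 1 with 1 left out, and at CT6 it was 1 in a fit of that time alone. Over all genes, the mean genotype difference passed for 4 genes, for 0 to 139 under the other alternatives and for 0 to 30 with 1 array left out. In the same order, time in control passed for 12 (12 to 82, 9 to 25) and in knockout for 14 (2 to 30, 4 to 74), CT12 minus CT0 for 8 in control (5 to 73, 3 to 13) and 19 in knockout (3 to 75, 0 to 63), and CT18 minus CT6 for 12 (12 to 49, 4 to 23) and 4 (3 to 13, 3 to 115).

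The sign turned for these values. CT12 minus CT0 of Fmo5 in control was -0.01 without the replicate 2 arrays at CT0 (-0.04 to 0.20 with 1 array left out), and CT18 minus CT6 was -0.04 to 0.13. CT18 minus CT6 of Fmo4 in control was 0.07 without the 4 arrays (-0.28 to 0.07). CT12 minus CT0 of Fmo2 in knockout was 0.00 to 0.40. The genotype difference of Fmo2 at CT0 was 0.01 after quantile normalization (-0.26 to 0.15), that of Fmo5 at CT12 -0.31 to 0.05 and that of Fmo4 at CT18 -0.23 to 0.11. Without the 4 arrays the deviations correlated at -0.48 for Fmo1 and Fmo2, -0.02 for Fmo1 and Fmo4, 0.65 for Fmo1 and Fmo5, -0.42 for Fmo2 and Fmo5 and -0.17 for Fmo4 and Fmo5; with 1 array left out they ran from -0.12 to 0.25 for Fmo1 and Fmo2, -0.14 to 0.46 for Fmo2 and Fmo5 and 0.73 to 0.85 for Fmo1 and Fmo5. The cause of these changes was not tested. With 3 mice a group and 1 probe set a gene, small differences and a dim member such as Fmo4 are measured with little precision.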
